A study of Mus musculus with 72 samples.

Results

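Heart RNA was compared between *Bmal1*-KO mice that had received the muscle *Bmal1* vector (KO+AAV) and *Bmal1*-KO mice without it (KO) at 40 weeks of age, in 4 libraries per group. These 8 libraries, chosen by their tissue, age, and genotype labels, are part of a series of 72 RNA-Seq libraries that also covers gastrocnemius, lung, liver, and white fat. All of the hearts came from male mice and were collected at ZT1, 1 hour after lights on. Both groups carried the whole-body deletion of *Bmal1*, the gene listed as *Arntl*, so neither group had a working *Bmal1* gene of its own. KO+AAV mice had been injected at postnatal day 5 with an AAV9 vector that holds an HA-tagged *Bmal1* cDNA behind the CK6 promoter. The study describes CK6 as muscle-specific and as not active in heart. The comparison therefore asks which heart transcripts differ when *Bmal1* is supplied under a muscle promoter. All 8 libraries were poly(A)-selected and sequenced at the same facility. No wild-type heart and no heart with a control vector was analyzed here, so an effect of vector injection as such and an effect of BMAL1 cannot be told apart.

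BMAL1 pairs with CLOCK or its relative NPAS2, binds E-box elements, and turns on the Period, Cryptochrome, REV-ERB, and DEC repressors as well as the PAR bZIP output factors DBP, TEF, and HLF. The repressors feed back on BMAL1:CLOCK and on the *Arntl* promoter, which closes the daily loop. The heart has a clock of its own that is tied to fuel use and to rhythmic expression of potassium channels, and loss of BMAL1 in cardiomyocytes is known to lead to cardiomyopathy.

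To show what BMAL1 would act on in these genes, the E-box CACGTG was searched on both strands in the 250 bases before the RefSeq start sites (GRCm38.p6). It was found in 6.02% of 32851 such windows. Counted by gene, it was found in at least 1 window of 5 of the 18 clock genes that had a window, out of 21 clock genes examined. A gene with several start sites has several windows, so the share of windows and the share of genes are not directly comparable. For each of these 5 genes, 1 match is shown with the motif in capitals, written 5′ to 3′ on the strand of the gene. Further copies, in the same window of *Ciart* and in another window of *Tef*, are not shown. A match of letters is a description and no evidence of binding.
*Per1* (chr11:69098771-69098800): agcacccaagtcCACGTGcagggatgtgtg
*Cry1* (chr10:85185097-85185126): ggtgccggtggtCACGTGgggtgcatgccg
*Ciart* (chr3:95882327-95882356): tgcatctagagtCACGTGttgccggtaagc
*Bhlhe41* (chr6:145865556-145865585): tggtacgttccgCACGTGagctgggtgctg
*Tef* (chr15:81802534-81802563): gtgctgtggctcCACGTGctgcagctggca

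Reads counted on genes numbered 36903079 to 48641965 per heart library. The deposited values are normalized counts, which are reads divided by 1 size factor per library, and values of single libraries are given below in the order of replicates 1 to 4. The 10 cardiomyocyte markers made up 6.19% to 7.65% of 7 libraries, and the 14 skeletal muscle fiber markers summed to 0.0694% to 0.285%. Nearly all of that sum was *Ckm* (33602 to 103075 normalized counts) and *Acta1* (619 to 26078), which heart muscle also expresses, while the defining fast myosins *Myh1*, *Myh2*, and *Myh4* were at no more than 4.39 and *Myog* at 0 in all 8. KO replicate 2 stood apart. The 18 hepatocyte markers took 6.57% of this library and 0.00196% to 0.00631% of the other 7. In KO liver at 40 weeks, the same markers took 10.7% of the mean library. The share of cardiomyocyte markers in KO replicate 2 was 2.64%. *Alb*, the liver's albumin gene, had 859141 normalized counts there and 153 to 216 in the others. Comparisons are therefore given with all 8 libraries and without KO replicate 2, and log2 fold changes of KO+AAV versus KO, from limma, refer to the 7 libraries without it unless 8 or 5 are named. Among the remaining 7 libraries, the 10 atrial markers summed to 660080 in KO replicate 4 and 107642 in KO+AAV replicate 1 but 6248 to 13335 in the other 5, and *Bmp10*, an atrial peptide gene, had 107334 and 1460 in these 2 libraries and 3.99 to 6.72 in the 5. Comparisons of these 5 libraries, and of 7 libraries with the atrial marker level as a covariate, are given for the DEGs in total and for some genes. Erythroid markers were highest in KO replicate 1, at 220106 against 20254 to 88921. In bulk tissue, fewer cells of a type and less RNA per cell cannot be told apart.

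**Figure D1:**
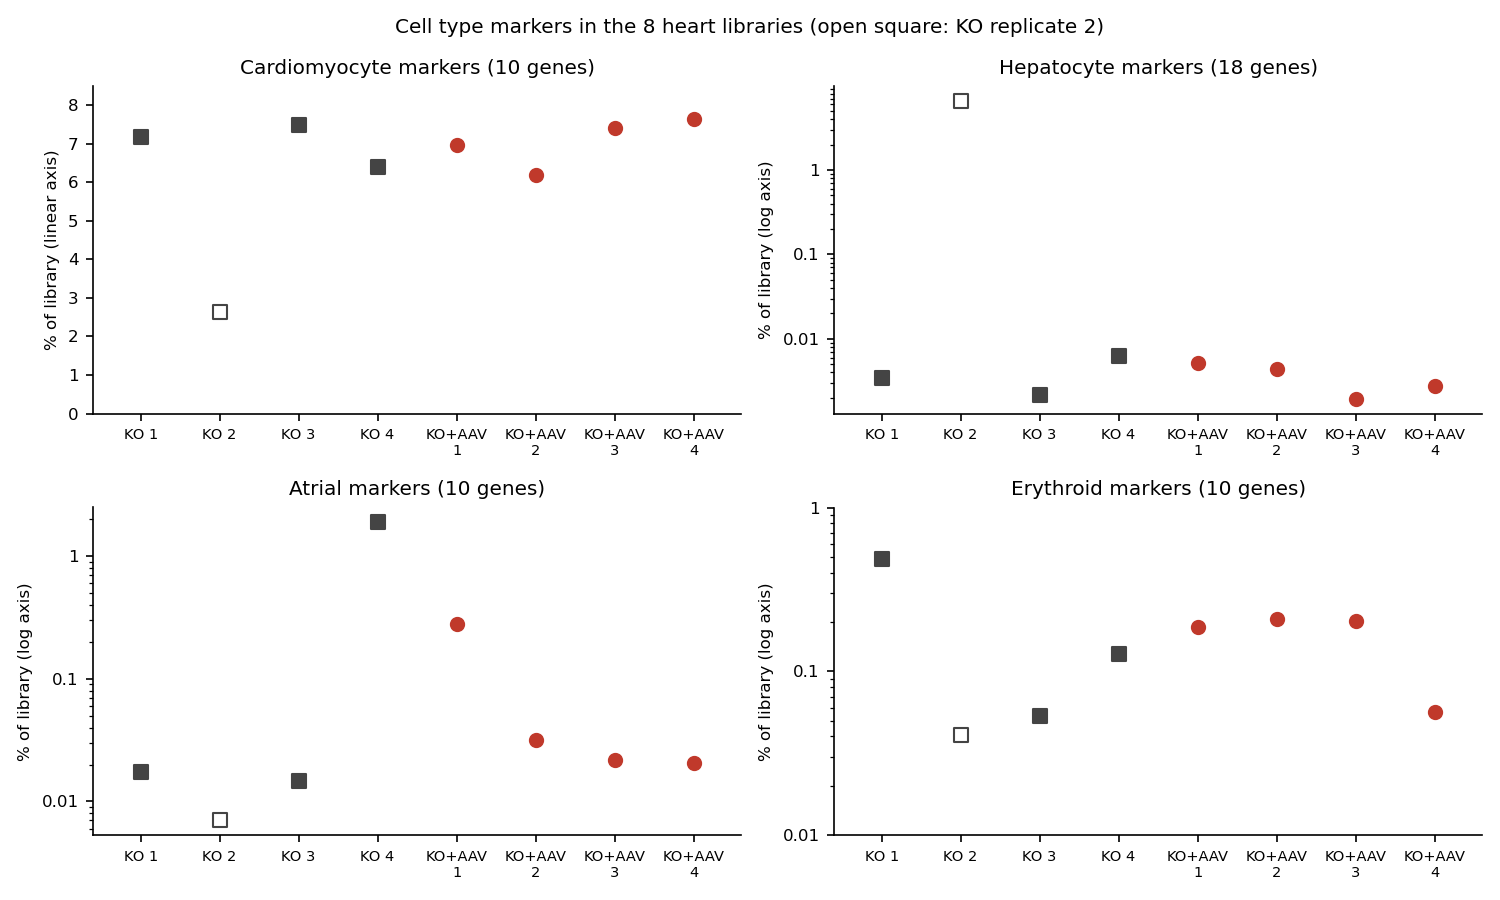
Share of each heart library taken by cardiomyocyte, hepatocyte, atrial, and erythroid markers, in percent of all normalized counts. Each point is 1 library (black squares, KO; red circles, KO+AAV; open square, KO replicate 2), the cardiomyocyte axis is linear, and the others are log axes. The hepatocyte markers took 6.57% of KO replicate 2, and the atrial markers took 1.89% of KO replicate 4.

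The mean of *Arntl* itself (chr7:113207465-113314126) was above that of KO hearts in KO+AAV hearts, but the difference did not pass its test. KO libraries had 564, 653, 484, and 624 normalized counts and KO+AAV libraries 821, 709, 627, and 746. The means were 581 ± 74.6 (SD, n = 4) and 726 ± 80.5 (SD, n = 4), and the groups overlapped, with KO+AAV replicate 3 below KO replicate 2. The difference was 0.32 on the log2 scale, or 1.25-fold (two-sided exact permutation test over 70 arrangements, *P* = 0.0571, with 0.0286 as the smallest *P* possible). Without KO replicate 2, the groups did not overlap, with 624 as the highest KO and 627 as the lowest KO+AAV value, and the difference was 0.38, or 1.30-fold (exact permutation test, *P* = 0.0571, the smallest that 35 arrangements allow). The gene-level count holds reads of the disrupted endogenous allele and of the vector's cDNA together, and these cannot be told apart. It thus does not show whether the vector was transcribed in heart. In gastrocnemius of the same genotypes and age, the mean of *Arntl* was lower with the vector and did not pass *P* under 0.01 (log2 fold change -0.48, SE 0.29, 95% interval -1.10 to 0.14).

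With 8 or 7 libraries, no clock transcript of the heart passed the test for a difference with the vector. None of 21 clock genes passed *P* under 0.01 with 8 libraries, where 0.0829% of 18089 genes did, nor without KO replicate 2, where 0.155% of 17439 genes did. At *P* under 0.05, which 1.93% of genes passed without KO replicate 2, *Arntl* was the 1 clock gene called. With the atrial covariate, *Arntl* was also a DEG (log2 fold change 0.42, SE 0.10), the 1 of the 21 called, where 0.419% of all genes were. The median log2 fold change of the 21 genes was 0.11 in 7 libraries, against -0.0016 for all genes tested, and -0.0029 in 8 libraries, against -0.012. Means were higher in KO+AAV for 15 of the 21 in 7 libraries and 10 in 8, while 49.6% and 48.2% of all genes tested had the higher mean there. In these 7 libraries, single genes lay between -0.21 for *Arntl2*, a paralog of *Arntl*, and 0.74 for *Ciart*, a repressor of BMAL1:CLOCK, and the 95% interval of 19 of the 21 lay within a 2-fold change in either direction. The exceptions were *Per1* and *Ciart*, whose upper bounds exceeded it.

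Among the activators, the BMAL1 partner *Clock* was nearly level, at 2702, 2596, 2381, and 2836 in KO and 2741, 2695, 2787, and 2614 in KO+AAV hearts (7 libraries, log2 fold change 0.04, SE 0.08, 95% interval -0.15 to 0.23). *Npas2* was at 790.2, 1538, 822, and 935 and 857, 1005, 663, and 829.6, with an overlap of the groups (log2 fold change -0.03, SE 0.14, 95% interval -0.36 to 0.30). For both, the means differed by less than the spread within a group.

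Period transcripts overlapped between the groups. *Per3* had 123, 343, 97.0, and 129 normalized counts in KO and 126, 125, 105, and 143 in KO+AAV hearts, so the 3 KO libraries without hepatocyte transcripts covered nearly the same range as the 4 KO+AAV libraries (log2 fold change 0.11, SE 0.17, 95% interval -0.30 to 0.51). *Per1* varied more, at 1059, 1823, 655, and 857 in KO and 713, 1536, 897, and 2592 in KO+AAV hearts (log2 fold change 0.59, SE 0.41, 95% interval -0.36 to 1.54). *Per2*, at 739.8, 1431, 584, and 603 and 496, 1003, 523, and 1104, showed the same order within KO+AAV, with replicates 2 and 4 above replicates 1 and 3. The difference of *Per2* was 0.20 (SE 0.30).

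Of the other repressors, *Ciart* was scarce, at 9.83, 16.8, 25.9, and 9.13 in KO and 17.6, 21.6, 21.9, and 32.9 in KO+AAV hearts, and KO replicate 3 lay above 3 of the 4 KO+AAV values (log2 fold change 0.74, SE 0.42, 95% interval -0.24 to 1.71). *Bhlhe40*, which encodes DEC1, had 873, 4152, 929, and 992 in KO and 1157, 1012, 1109.9, and 1694 in KO+AAV hearts. Without KO replicate 2 its groups did not overlap, as was the case for 3.73% of all genes tested and 1.78% in this direction (log2 fold change 0.39, SE 0.17, 95% interval -0.0008 to 0.78). *Cry1* and *Cry2* differed by -0.09 and 0.11 on the log2 scale (SE 0.11 and 0.09).

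The REV-ERB gene *Nr1d1* had 596, 153, 369, and 247 normalized counts in KO and 400.2, 456, 448, and 344 in KO+AAV hearts, where the KO values spanned the whole KO+AAV range (log2 fold change 0.11, SE 0.27, 95% interval -0.51 to 0.73). *Nr1d2* was at 349, 303, 322, and 222 and 250.1, 437, 303, and 327 (log2 fold change 0.14, SE 0.22, 95% interval -0.37 to 0.65). The ROR genes *Rora* and *Rorb* differed by -0.05 and 0.21 (SE 0.09 and 0.30).

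Output factors followed the same pattern. *Dbp* was at 339, 330.3, 349.6, and 328 in KO and 322, 246, 334, and 390.3 in KO+AAV hearts, with the lowest and the highest value both in KO+AAV (log2 fold change -0.09, SE 0.16, 95% interval -0.45 to 0.28). *Hlf* had 418, 1776, 455, and 525 and 517, 319, 462, and 581, so that KO replicate 2 alone exceeded the rest (log2 fold change -0.02, SE 0.20, 95% interval -0.48 to 0.45). *Tef* and *Nfil3*, the latter a repressor at the same elements, differed by 0.20 and 0.09 (SE 0.11 and 0.13). Of 15 further output genes, none was a DEG, and 10 had the higher mean in KO+AAV in 7 libraries (median 0.12) but 5 in 8 (median -0.19). *Dbp* shares 18% of its exon length with *Sphk2* on the other strand and *Bhlhe41* 19.0% with *Gm43909*, and counts of these genes are uncertain to that extent because the strand setting of the counting is not given.

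**Figure D2:**
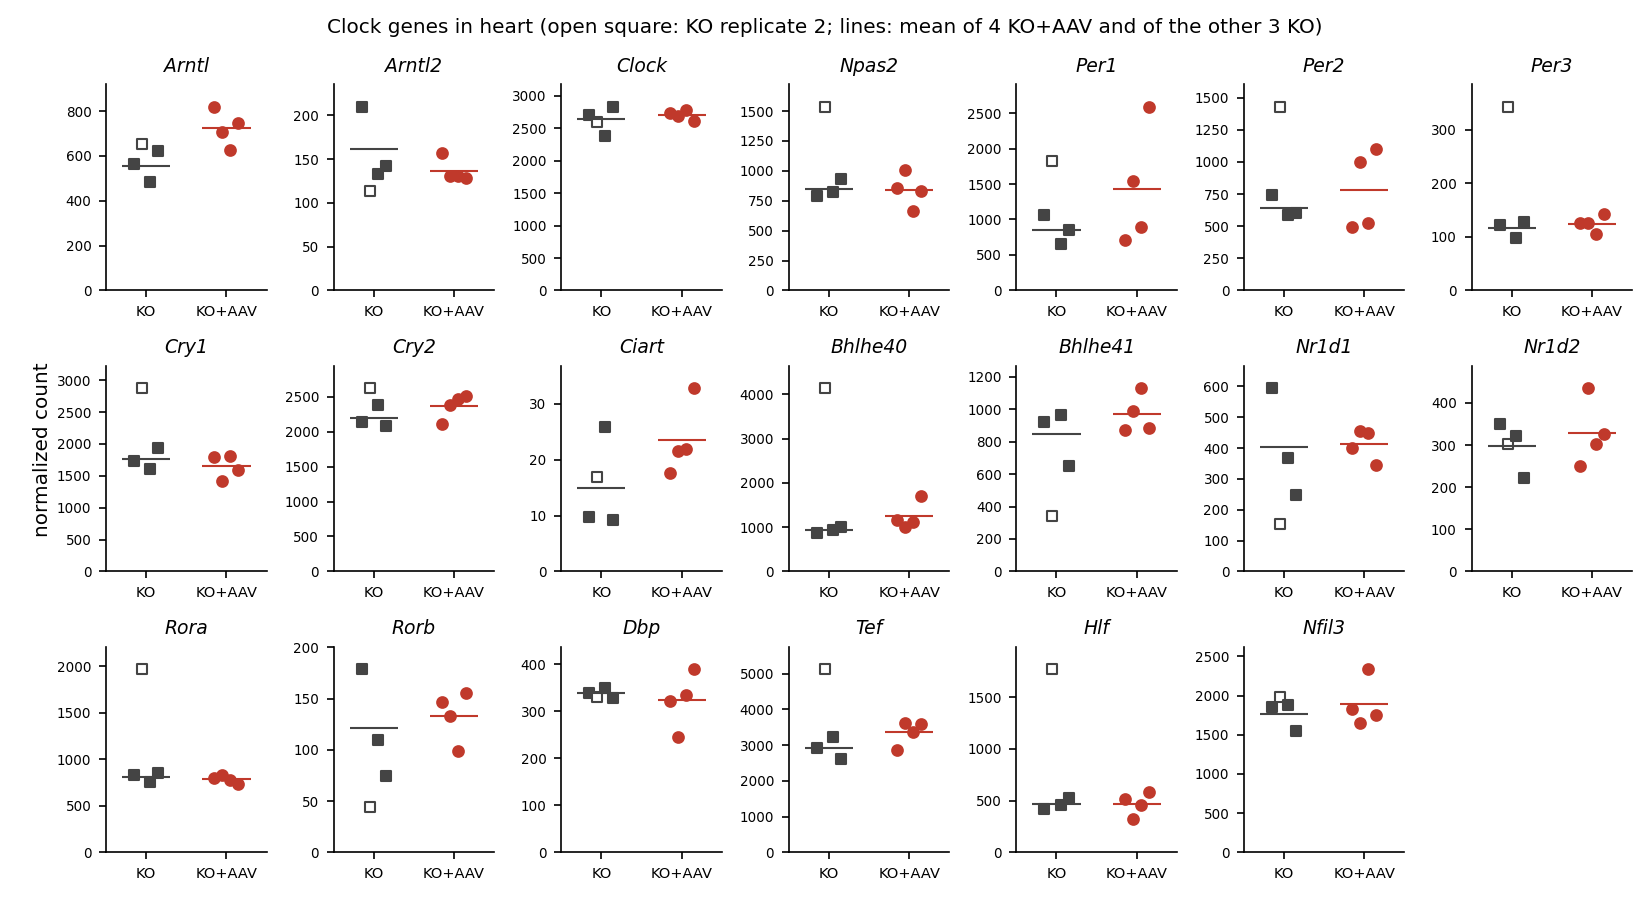
Normalized counts of 20 clock genes in the 8 heart libraries, each panel on its own linear axis from 0. Points are libraries (black squares, KO; red circles, KO+AAV; open square, KO replicate 2), and lines are the means of the 4 KO+AAV and the other 3 KO libraries. *Arntl* is separated without KO replicate 2 (highest KO 624, lowest KO+AAV 627), and KO replicate 2 lies above all others for *Bhlhe40*, *Rora*, *Hlf*, and *Per3*.

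Across all genes, few transcripts passed the study's threshold for DEGs (*P* under 0.01) with limma, and none passed after adjustment. The study used DESeq2, which here called 82 genes with 8 libraries and 64 with 7. With 8 libraries, limma called 15 of 18089 genes, 13 higher (0.0719%) and 2 lower in KO+AAV (0.0111%), and 232 passed *P* under 0.05, or 1.28%. Without KO replicate 2, 27 of 17439 genes were called, 15 higher (0.086%) and 12 lower (0.0688%), and 336 passed *P* under 0.05. A threshold of 0.01 passes 181 and 174 genes on average when no gene differs. No gene reached an adjusted *P* under 0.05 with limma (smallest adjusted *P*, 0.862 and 1) or with edgeR, while DESeq2 on the reads of the 7 libraries gave 3 such genes (0 with 8 libraries), *Atf3*, *Slit2*, and *Neb* (adjusted *P* = 0.0295 for each). These *P* values measure the spread between 3 or 4 hearts per group. The 2 limma lists, with 8 and 7 libraries, shared 11 genes, 73.3% of the first and 40.7% of the second. Of these, 10 were higher and *Neb* was lower in KO+AAV. In the 5 libraries with low atrial markers, 11 of the 27 genes called without KO replicate 2 were among 65 DEGs. Their direction there was fixed in advance, because the groups did not overlap for any of the 27 and the 5 libraries are a subset. With the atrial covariate, all 27 kept their direction, and 24 were among 73 DEGs. Leaving out 1 more of the 7 libraries gave between 14 (without KO+AAV replicate 4) and 74 DEGs (without KO replicate 3), and 3 of the 27, *Neb*, *Slit2*, and *Gm18588*, were called each time.

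*Atf3* (chr1:191170296-191218039), an immediate early and stress-induced transcription factor, rose 3.53-fold with 8 libraries and 3.07-fold with 7. It had 181, 124, 258, and 224 normalized counts in KO and 581, 1351, 709, and 369 in KO+AAV hearts, and every KO+AAV value lay above every KO value (8 libraries, log2 fold change 1.82, SE 0.40, 95% interval 0.91 to 2.73; 7 libraries, log2 fold change 1.62, SE 0.38, 95% interval 0.74 to 2.50). KO+AAV replicate 2 was the highest of the 4. The groups did not overlap for 335 of all genes tested with 8 libraries, or 1.85%, and for 0.768% in this direction. *Fosl2*, an AP-1 subunit, rose 1.58-fold without KO replicate 2, with 819.7, 595, 1075, and 972 in KO and 1135, 1890.2, 1342, and 1769 in KO+AAV hearts (log2 fold change 0.66, SE 0.19, 95% interval 0.23 to 1.09). These groups did not overlap with or without KO replicate 2.

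*Slit2* (chr5:47983138-48307733), a secreted ligand of the ROBO guidance receptors, rose 2.93-fold in 7 libraries. Its normalized counts were 179, 47.9, 304, and 232 in KO and 978, 407, 550, and 1004 in KO+AAV hearts (log2 fold change 1.55, SE 0.34, 95% interval 0.77 to 2.33), and the 4.33-fold difference with 8 libraries includes the low value of KO replicate 2. *Otud1*, a deubiquitinase gene, had 479, 359, 717, and 648 and 1232, 779, 1293, and 857 (1.67-fold, log2 fold change 0.74, SE 0.22, 95% interval 0.24 to 1.24). *Zfp568*, a KRAB zinc finger gene, was at 842, 969, 943, and 777 and 1064, 1665, 1187, and 1328 (1.52-fold, log2 fold change 0.60, SE 0.15, 95% interval 0.25 to 0.96). In each of these genes all KO+AAV hearts lay above all KO hearts.

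*Kcnd3* encodes Kv4.3, a pore subunit of the cardiac transient outward potassium current. KO hearts had 901, 374, 919, and 972 normalized counts and KO+AAV hearts 1058, 1197, 1198, and 1215, and without KO replicate 2 the difference was 1.25-fold (log2 fold change 0.32, SE 0.08, 95% interval 0.14 to 0.51). With 8 libraries the difference was 0.65 (SE 0.29) and KO replicate 2, with its smaller share of cardiomyocyte transcripts, was the lowest heart. *Kcnd3* was the 1 DEG of 19 cardiac ion channel genes tested, beside 0.155% of all genes. The median of the 19 was 0.11 (0.40 with 8 libraries and no DEG). *Kcnj2*, for the inward rectifier Kir2.1, and *Kcnq1*, for the slow delayed rectifier, were named after their values were seen, with log2 fold changes of -0.42 (SE 0.15) and -0.35 (SE 0.13), and neither was a DEG.

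Apart from *Crybg1*, the other genes called as higher in either comparison were low, noncoding, or of uncertain counting. *Gpr63* and *Prokr1*, both receptor genes, had at most 2.88 and 7.47 normalized counts in KO and at least 6.90 and 11.2 in KO+AAV hearts. *Gpr63* passed the filter of a mean above 5 normalized counts only through the KO+AAV group, so its call is no support for a difference. *Crybg1* and *Mir17hg*, the host transcript of a miRNA cluster, were 1.54-fold and 1.64-fold higher without KO replicate 2, and both were highest of all in KO replicate 2 (646 and 185 normalized counts). Higher counts were also called for the mitochondrial proline tRNA gene *mt-Tp*, *5430430B14Rik* and *2610306O10Rik*, whose annotation as genes is provisional, the noncoding transcript *Gm40649*, the pseudogenes *Gm18588* and *Gm45777*, *Gm22066*, which is annotated as a miRNA, and the antisense transcript *Gm15958*. Counts of *mt-Tp* can hold reads of the neighboring mitochondrial transcripts, and those of pseudogenes can be split with their parent genes.

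*Neb* (chr2:52136647-52378474), the gene of nebulin, a thin filament protein best known from skeletal muscle, fell 2.47-fold without KO replicate 2 and had the smallest *P* of that comparison, although no gene passed adjustment. Its normalized counts were 279, 933, 312, and 367 in KO and 186, 127, 82.2, and 138 in KO+AAV hearts, with no overlap with or without KO replicate 2, as was the case in this direction for 1.08% of genes with 8 libraries and 1.94% with 7 (log2 fold change -1.30, SE 0.26, 95% interval -1.90 to -0.71). *Myom3*, an M-band protein gene of the sarcomere, was at 331, 144, 255, and 339 and 216, 202, 224, and 183 and was 1.49-fold lower in KO+AAV without KO replicate 2 (log2 fold change -0.57, SE 0.14, 95% interval -0.90 to -0.24). KO replicate 2 lay below every KO+AAV heart for *Myom3* and above every other heart for *Neb*, and with all 8 libraries *Myom3* was no DEG (log2 fold change -0.30, SE 0.27, 95% interval -0.93 to 0.33).

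Both *Mthfd2*, a mitochondrial folate enzyme, and *Asns*, asparagine synthetase, fell without KO replicate 2. *Mthfd2* had 338, 209, 406, and 671 normalized counts in KO and 223, 291, 237, and 224 in KO+AAV hearts, 1.86-fold lower in KO+AAV (log2 fold change -0.90, SE 0.23, 95% interval -1.43 to -0.37). *Asns* had 145, 55.7, 158, and 292 and 89.5, 127, 101, and 86.9, 1.88-fold lower (log2 fold change -0.91, SE 0.27, 95% interval -1.53 to -0.29). KO replicate 4, the heart with the most atrial transcripts, was highest for both, and in the 5 libraries without it and KO+AAV replicate 1 the log2 fold changes were -0.57 (SE 0.17) and -0.54 (SE 0.21), where neither was a DEG. With the atrial covariate in 7 libraries both were. Neither was a DEG with 8 libraries (log2 fold changes -0.62 and -0.47, SE 0.32 and 0.45).

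Lower counts were called without KO replicate 2 for *Fbxo9*, an F-box gene of a ubiquitin ligase, at 1755, 2729, 1825, and 1889.8 in KO and 1529, 1437, 1509, and 1403 in KO+AAV hearts (1.24-fold, log2 fold change -0.31, SE 0.07, 95% interval -0.48 to -0.15). *Snrpn*, an imprinted gene for a spliceosomal protein, was at 1424, 632, 955, and 1276 and 849, 708, 899.5, and 861 (log2 fold change -0.54, SE 0.15, 95% interval -0.88 to -0.20), and 34.1% of its exon length overlaps other annotated genes, *Snurf* among them. *Csad*, an enzyme of taurine synthesis, had 700.5, 9328, 674, and 710.4 and 573, 609, 540.2, and 571 (1.21-fold lower without KO replicate 2, log2 fold change -0.28, SE 0.08, 95% interval -0.47 to -0.09). The glutathione transferase gene *Gstp2*, which has close paralogs, the noncoding *C030037D09Rik* and *Gm28867*, and *Gm10390*, antisense to *Rbm19*, were 1.65-, 1.43-, 2.22-, and 3.32-fold lower in KO+AAV. *Ccl21a*, a chemokine of lymphatic vessels with near-identical copies, was listed at 0 in all KO+AAV hearts and in KO replicate 2, at 1.23 in KO replicate 1, and at 101 and 76.4 in KO replicates 3 and 4. *Ccl21a* passed the filter of a mean above 5 normalized counts only through KO replicates 3 and 4, so its call is no support for a difference. With 8 libraries, the pseudogene *Gm10540* was the other gene called as lower.

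**Figure D3:**
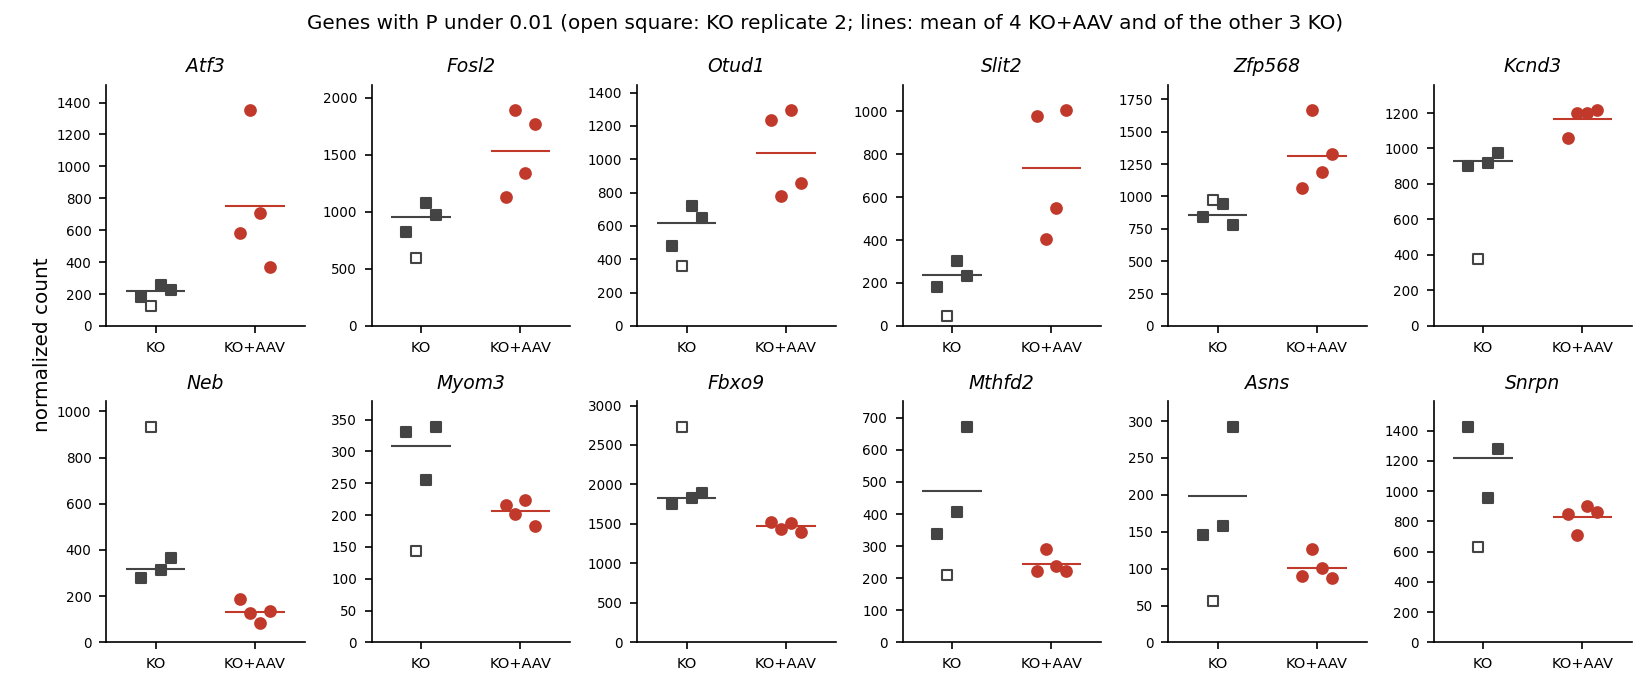
Normalized counts of 12 genes with *P* under 0.01 in at least 1 of the 2 comparisons, on linear axes from 0. Points are libraries (black squares, KO; red circles, KO+AAV; open square, KO replicate 2), and lines are the means of the 4 KO+AAV and the other 3 KO libraries. Without the open squares the groups do not overlap in any of the 12 panels. The same held for all 27 genes called without KO replicate 2, from which these were taken, and for 3.73% of all genes tested.

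Heat shock and chaperone transcripts were mostly higher in KO+AAV hearts, although no member passed *P* under 0.01 in 7 libraries. Of 20 members, 18 had the higher mean in KO+AAV without KO replicate 2, with a median log2 fold change of 0.24, and 16 with 8 libraries (median 0.31). At *P* under 0.05, 5 passed, all higher (*Hsp90aa1*, *Hsph1*, *Hspa1a*, *Hspa1b*, and *Dnaja1*), beside 1.93% of all genes, and 5 had every KO+AAV heart above every KO heart, beside 1.78% of all genes. With 8 libraries, 3 passed *P* under 0.05, beside 1.28% of genes, and 1 was apart in this direction, beside 0.768%. In the 5 libraries with low atrial markers, 4 of the 20 were DEGs, all higher, beside 0.377% of genes. *Hspa8*, the most abundant cytosolic chaperone of the list, differed by 0.34 (SE 0.18).

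Members singled out after their values were seen show how uneven this was. *Hspa1a*, the inducible HSP70 gene, had 103, 102, 129.7, and 161 normalized counts in KO and 189.6, 1618, 263, and 1168 in KO+AAV hearts. KO+AAV replicates 2 and 4 were far above the other 2, although all 4 exceeded the KO hearts (log2 fold change 2.09, SE 0.73, 95% interval 0.42 to 3.77). *Hspa1b*, its near-identical neighbor with which reads can be split, showed the same order (120.2, 1099, 136, and 1036 in KO+AAV). *Hsp90aa1*, the inducible HSP90 gene, was at 6119, 8512, 5556, and 6036 in KO and 6488, 10689, 8114, and 9060.5 in KO+AAV hearts (1.43-fold, log2 fold change 0.52, SE 0.16, 95% interval 0.15 to 0.88). KO+AAV replicates 2 and 4 were also the 2 highest of the KO+AAV group for *Hsph1*, *Dnaja1*, *Per1*, and *Per2*.

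Immediate early genes were likewise mostly higher. Of 18, 16 had the higher mean in KO+AAV without KO replicate 2 and 15 with 8 (medians 0.52 and 0.78), and *Atf3* and *Fosl2* were DEGs in both, beside 0.155% and 0.0829% of all genes. With the atrial covariate *Nr4a1* was called as well (log2 fold change 1.22, SE 0.28), where 0.419% of all genes were called. *Jun*, the AP-1 subunit that was the most abundant of the list, was at 2072, 1470.3, 2872, and 2496 in KO and 2855, 4493, 3334, and 3365 in KO+AAV hearts (log2 fold change 0.49, SE 0.17, 95% interval 0.11 to 0.88). *Nr4a1*, an orphan nuclear receptor gene named after its values were seen, had 273, 159, 408, and 729 and 1288, 1507, 571, and 572, with KO replicate 4 above 2 of the KO+AAV hearts (log2 fold change 1.04, SE 0.45, 95% interval 0.02 to 2.07). *Fos* and *Egr1*, likewise chosen afterwards, varied widely within both groups and differed by 0.61 (SE 0.97) and 0.02 (SE 0.71). In gastrocnemius, 2 of the 18 were DEGs, both higher with the vector, beside 1.08% of all genes there, and the median was 0.54. For none of the 18 did the difference between the heart and gastrocnemius responses pass *P* under 0.01.

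**Figure D4:**
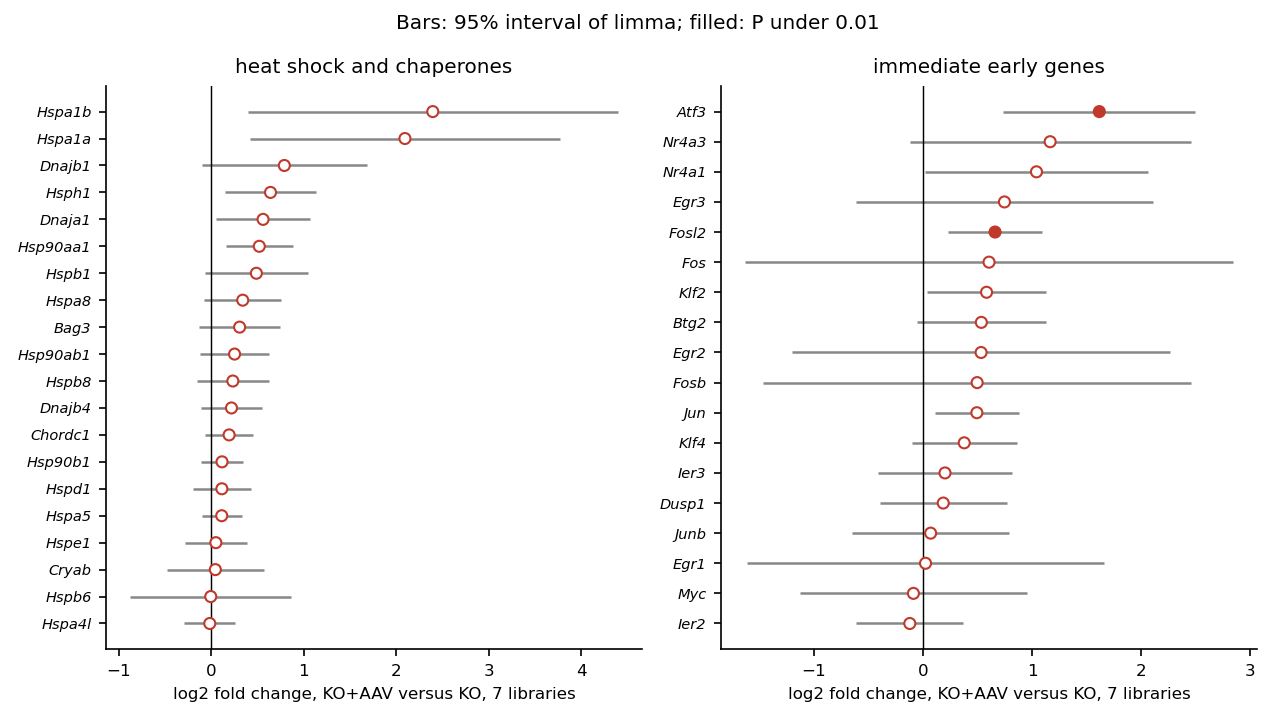
Log2 fold change of KO+AAV versus KO for 20 heat shock and chaperone genes and 18 immediate early genes in the 7 heart libraries without KO replicate 2. Bars are 95% intervals of limma, and filled circles have *P* under 0.01 (*Atf3* and *Fosl2*). Points to the right of 0 are 18 of 20 and 16 of 18 genes.

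The unfolded protein and amino acid stress list did not move one way. Of 23 members tested without KO replicate 2, 12 had the higher mean in KO+AAV (median 0.0076). *Atf3* was a DEG that rose and *Mthfd2* and *Asns* were DEGs that fell, beside 0.155% of all genes. With 8 libraries, 6 of 24 were higher (median -0.25) and *Atf3* was the 1 DEG, beside 0.0829% of all genes. *Hspa5*, the most abundant of them and the main chaperone of the endoplasmic reticulum, was at 18909.7, 36089, 21150.1, and 21700 in KO and 22654, 21989, 22209, and 22038 in KO+AAV hearts (log2 fold change 0.11, SE 0.09, 95% interval -0.11 to 0.33). The amino acid response element TGATGCAA was found, on either strand, in 0.791% of all promoter windows. Counted by gene, it was found in at least 1 window of 4 of the 21 members that had a window, *Atf3*, *Chac1*, *Fgf21*, and *Herpud1*. A share of windows and a share of genes are not directly comparable. A match is no evidence of regulation. The window of *Atf3* was chosen after the values were seen, because *Atf3* was the 1 member called as higher. It is shown with the motif in capitals (chr1:191183424-191183455, gene strand).
*Atf3*: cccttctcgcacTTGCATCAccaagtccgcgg

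The ventricular sarcomere list, which does not hold *Neb* or *Myom3*, gave no DEG. With 8 libraries, all 18 ventricular sarcomere genes had the higher mean in KO+AAV (median 0.39) and none was a DEG, but without KO replicate 2 the median was 0.081, and in the 5 libraries with low atrial markers it was -0.058 with 4 of 18 higher. *Myh6*, the main adult ventricular myosin of the mouse, differed by -0.03 (SE 0.52) and titin (*Ttn*) by 0.02 (SE 0.21) in 7 libraries. *Myh7*, the fetal myosin that rises under load, was at 4813, 1153, 3391, and 1872 in KO and 6017, 34869.5, 5998, and 3944 in KO+AAV hearts. KO+AAV replicate 2 was far above the others, and the difference did not pass the test (log2 fold change 1.42, SE 0.70, 95% interval -0.19 to 3.04). Of 13 fetal and load-responsive genes, none was a DEG in 7 libraries (median 0.21) or in 8 (median 0.59). *Nppb*, the gene of the natriuretic peptide BNP, had 3942, 1417, 3355, and 7724 and 4076, 8863, 7507, and 3342, with overlap of the groups (log2 fold change 0.23, SE 0.40, 95% interval -0.69 to 1.16), while *Nppa*, the gene of the atrial peptide ANP, was at 1403, 263, 1041, and 309047 and 35104, 4829, 3919, and 2502 and so followed the atrial markers. *Nppa* is itself among the atrial markers that set the 5 libraries apart, so no test of it in those 5 is given. Among 15 calcium handling genes, 6 were higher (median -0.047), against 14 with 8 libraries (median 0.31), and none was a DEG. *Atp2a2*, the SERCA2 calcium pump, differed by -0.13 (SE 0.37).

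Genes of fuel use gave no DEG in either comparison. Without KO replicate 2, medians were 0.11 for 28 genes of fatty acid uptake and oxidation, 0.045 for 28 of glycolysis, 0.085 for 18 of the citric acid cycle, 0.19 for the 13 protein-coding genes of the mitochondrial genome, and 0.0026 for 31 nuclear complex I subunits. In the 5 libraries with low atrial markers, the same medians were -0.00093, -0.040, -0.035, -0.023, and -0.11, and with 8 libraries they were 0.25, 0.25, 0.22, 0.35, and 0.15. The share of cardiomyocyte markers moved with them, since all 10 of these markers had the higher mean in KO+AAV with 8 libraries (median 0.36), 6 with 7, and 2 with 5, and its part in these lists was not tested. Single hearts varied within both groups. *Pdk4*, which blocks pyruvate oxidation in fasting, was at 50196, 5183, 18891, and 18321 in KO and 15598, 54816, 18351, and 20698 in KO+AAV hearts, so KO replicate 1 and KO+AAV replicate 2 each stood above the rest of their group. *Angptl4*, a fasting-induced lipase inhibitor named after its values were seen, had 1819, 946, 428, and 978 in KO and 155, 1316, 140.2, and 215 in KO+AAV hearts, where the groups overlapped (log2 fold change -1.70, SE 0.81, 95% interval -3.56 to 0.16).

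Without KO replicate 2, the lists of immune and matrix genes held 1 DEG, *Ccl21a*, beside 0.155% of all genes. This gene passed the filter on the mean only through the KO group. The atrial covariate added the adhesion gene *Vcam1* (log2 fold change 0.42, SE 0.11), where 0.419% of all genes were called. In the 5 libraries with low atrial markers, the MHC class I gene *H2-T23* (0.41, SE 0.11) and the collagen gene *Col1a1* (-0.29, SE 0.08) were called, beside 0.377% of all genes. *Ccl21a* was not a DEG in those 5. All 9 MHC class II genes tested had the higher mean in KO+AAV (median 0.69, and 0.63 with 8 libraries), none was a DEG, and *Cd74*, their invariant chain and the most abundant, was at 596, 1276, 1347, and 2736 in KO and 3242, 1107, 1699, and 2643 in KO+AAV hearts (log2 fold change 0.62, SE 0.53, 95% interval -0.59 to 1.84). In both groups, every heart but replicate 1 lay within the *Cd74* range of the other group. Of 14 MHC class I genes, 13 were higher (median 0.30), and of 31 interferon response genes, 26 were (median 0.20), with no DEG in either list, but with 8 libraries these counts were 8 and 16. Of 26 collagen and matrix genes, 5 were higher (median -0.10), against 23 (median 0.25) with 8 libraries, and *Col4a1*, a basement membrane collagen gene and the most abundant of them, was at 24407, 8037, 24875, and 16290.3 in KO and 18882, 19992, 22795, and 21010 in KO+AAV hearts (log2 fold change -0.06, SE 0.16, 95% interval -0.44 to 0.32). All 10 macrophage markers had the lower mean in KO+AAV without KO replicate 2 (median -0.15) and the higher mean with it. The 10 proliferation genes had the lower mean in KO+AAV in both comparisons (median -0.54 and -0.48), and of these *Mki67* was at 116, 46.6, 90.3, and 81.3 in KO and 109, 14.7, 95.3, and 36.9 in KO+AAV hearts (named after its values were seen). None of these markers was a DEG. The neutrophil, white adipocyte, and atrial markers had medians of -0.65, -0.61, and -0.74 in 7 libraries and of -0.46, 0.098, and 0.029 in 8, and no cell type marker list held a DEG in 7 or 8 libraries.

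The list of secreted cardiac factors, which does not hold *Slit2*, gave no DEG with 7 or 8 libraries. Of 17 tested without KO replicate 2, 4 had the higher mean in KO+AAV (median -0.059), and with 8 libraries 14 of 18 did (median 0.24). *Nrg1*, a growth factor that signals from endothelium to cardiomyocytes, was named after its values were seen. It had 18.4, 42.7, 11.5, and 18.3 normalized counts in KO and 36.9, 36.2, 24.1, and 30.9 in KO+AAV hearts, and without KO replicate 2 the groups did not overlap (log2 fold change 0.96, SE 0.29, 95% interval 0.28 to 1.64). With the atrial covariate *Nrg1* was a DEG (log2 fold change 1.03, SE 0.28), as were 0.419% of all genes. *Vegfa*, a growth factor of blood vessels, was at 14059, 11898, 15460.4, and 12012 and 13353, 10886, 18502, and 17565 (log2 fold change 0.10, SE 0.20, 95% interval -0.35 to 0.55). The remaining lists gave no DEG with 7 or 8 libraries. Their medians in 7 libraries were 0.14 for 17 antioxidant genes, -0.094 for 15 genes of the p53 and senescence response, 0.0040 for 14 of atrophy and autophagy, 0.098 for 16 of ketone and amino acid oxidation, 0.052 for 13 of the PPARα and fasting response, -0.015 for 18 glucocorticoid response genes, and -0.090 for 13 complement genes. With 8 libraries the same medians were -0.18, 0.090, 0.032, 0.039, 0.0061, -0.064, and -0.61, so that the first and second turned sign.

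To ask whether heart and skeletal muscle respond alike, the vector's effect in heart was compared with that in gastrocnemius (5 libraries per genotype, same age) by an interaction term. Over 14666 genes, 59 passed *P* under 0.01, or 0.402%. In the limma fit without weights or a block, 1 passed an adjusted *P* under 0.05, or 0.00682% (0.00685% without KO heart replicate 2). This was *Mylk4* (chr13:32700834-32783954), a myosin light chain kinase gene of striated muscle. In heart, *Mylk4* was at 1266, 953, 1864, and 1935 in KO and 1337, 925, 2104, and 1520.4 in KO+AAV libraries, with full overlap (log2 fold change -0.23, SE 0.27, 95% interval -0.85 to 0.38). In gastrocnemius it rose from 230 ± 241 (SD, n = 5) to 8593 ± 3055 (SD, n = 5), or 53.6-fold. The heart response was lower by 5.78 on the log2 scale with 18 libraries (SE 0.75, limma adjusted *P* = 0.00777) and the difference was -5.98 without KO heart replicate 2 (SE 0.78, limma adjusted *P* = 0.0105), and with edgeR no gene passed adjustment. Heart libraries were sequenced at another site than these gastrocnemius libraries, and site and tissue cannot be told apart in a level, so only the difference of within-tissue differences was tested.

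Differences of clock genes between the tissues did not pass adjustment in the limma fit without library weights or a replicate block. Of 20 clock genes tested in gastrocnemius, 7 were DEGs there, beside 1.08% of genes (5.21% at *P* under 0.05), and 5 of 20 had a different response in heart at *P* under 0.01 without KO heart replicate 2, beside 0.35% of genes. With all 18 libraries the count was 4 of 20, beside 0.402% of genes. *Per3* rose 9.17-fold in gastrocnemius, from 15.4 ± 10.1 (SD, n = 5) to 128 ± 33.8 (SD, n = 5), where the 7 heart libraries had a 1.08-fold difference. This difference in response was -3.09 (SE 0.58, limma adjusted *P* = 0.251). For *Hlf*, *Nr1d2*, and *Dbp* it was -2.21, -1.60, and -1.93 (limma adjusted *P* = 0.212, 0.805, and 1). With library quality weights in limma, or with DESeq2, these 4 genes passed an adjusted *P* under 0.05 in 18 libraries. The fifth gene was *Npas2*, which was lower with the vector in gastrocnemius and level in heart (difference 0.71, SE 0.24), and which did not pass with all 18 libraries (0.50, SE 0.28). Among the heart DEGs, *Otud1* was a DEG in gastrocnemius too (log2 fold change 1.73, SE 0.52, 95% interval 0.59 to 2.87), while *Atf3*, *Slit2*, and *Neb* were not (log2 fold changes 0.29, 0.31, and -0.05; SE 0.45, 0.60, and 0.22).

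**Figure D5:**
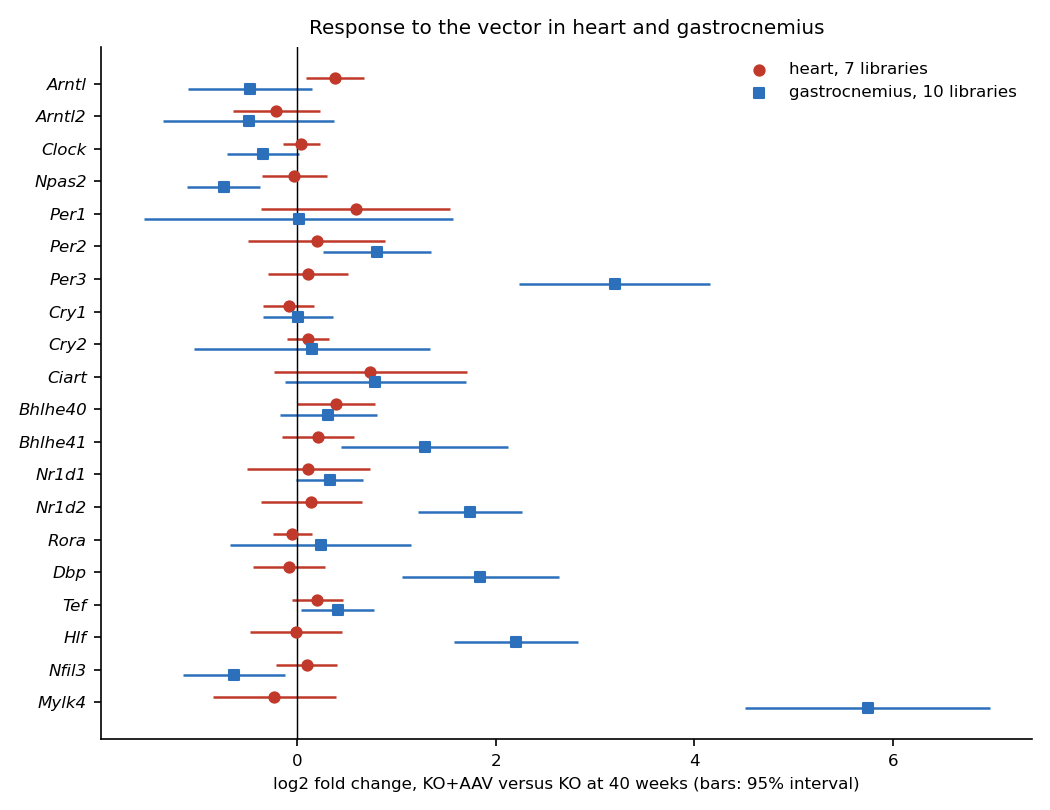
Log2 fold change of KO+AAV versus KO at 40 weeks for 19 clock genes and *Mylk4* in heart (red circles, 7 libraries without KO replicate 2) and gastrocnemius (blue squares, 10 libraries), with 95% intervals of limma. Heart values lie between -0.23 and 0.74, and gastrocnemius values reach 3.20 for *Per3* and 5.74 for *Mylk4*.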

How the data were processed

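RNA-Seq values of 8 hearts and, for comparison, 10 gastrocnemius muscles were read from the deposited table, which holds 66 of the 72 libraries. Its values are signal values: the authors counted reads per gene (HISAT2, HTSeq, GRCm38 or mm10, per the submitters' processing notes) and divided them by 1 DESeq2 size factor per library. Whole reads were recovered from these deposited normalized counts for 100% of values within 0.001 reads, and the 8 hearts had a median of 43065480 reads. The annotation release and strand setting were not given in the sources used here. Coordinates came from GENCODE vM21 (99.5% of gene IDs matched) and promoter windows from RefSeq. A second table, of a GFP vector experiment at 10 weeks, was not used.

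Genes with a mean above 5 normalized counts were tested on log2(value + 1), a scale that understates changes of low genes, with limma 3.58.1 and an intensity trend (R 4.3.3), with Benjamini-Hochberg adjustment over all genes tested. Fold changes are on that scale. DEGs had *P* under 0.01, the study's threshold, which the study applied to DESeq2 results. *Arntl* was tested by an exact permutation test. Alternatives included edgeR 4.0.16 and DESeq2 1.42.0 on the recovered reads, other filters, library weights, covariates for marker levels, a replicate block, and leaving out single libraries; fits without KO+AAV replicate 1 and KO replicate 4, and with the atrial covariate, were added after the values were seen. Scripts were tested on simulated data. Of the 21 clock genes, 1 entered the counts and medians but is not reported here. Figures were drawn with matplotlib 3.10.9 (Python 3.11.15).

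The hearts, the 30 pathway lists, and the 20 marker lists were chosen with earlier results of these data known. By rule, the text named the clock genes, up to 15 DEGs per direction with groups apart in 8 libraries, the 5 with the smallest *P* per direction in 7, genes passing adjustment, and the DEGs, then the most abundant members, of each list. Other genes, the remaining DEGs included, were named after their values were seen. Replicates are separate samples by their labels, and *P* values measure the spread between these samples. The labels do not say whether replicate numbers pair the hearts, and the main tests used no pairing. Deviations of same-numbered libraries correlated at -0.152, 0.0790, 0.233, and -0.248 with 8 libraries. Without KO replicate 2, they correlated at -0.342, 0.357, and -0.359 for replicates 1, 3, and 4. These mixed signs do not settle the question.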

Additional observations from a re-analysis of the deposited data

Results flagged for a closer look

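Among 112 groups of 4 hearts examined, 1 library lay far from the other 3 in 18, by Dixon's criterion, where chance gives about 1 in 20, or 5.6. KO replicate 2 was that library in 10, with hepatocyte markers summing to 3.25e+06 normalized counts, mesothelial markers to 469647, of which 462576 came from *C3*, white adipocyte markers to 80497, of which 51285 came from *Car3* and 20869 from *Thrsp* with *Adipoq* and *Plin1* at 0, endothelial markers to 22205 (low), and thymocyte markers to 11304, of which 10863 came from *Cd1d1*, and with *Per3* at 343, *Bhlhe40* at 4152, *Rora* at 1977, *Hlf* at 1776, and *Neb* at 933. In KO replicate 4, atrial markers summed to 660080, conduction system markers to 6282, and Schwann cell and neuron markers to 1974. KO+AAV replicate 1 stood apart for atrial markers, at 107642, and *Arntl2*, at 157. KO replicate 1 did so for erythroid markers, at 220106, KO replicate 3 for *mt-Tp*, at 501, and KO+AAV replicate 3 for *Gpr63*, at 14.2. Between tissues, the vector's effect on *Mylk4* differed by -5.78 on the log2 scale, heart minus gastrocnemius (limma adjusted *P* = 0.00777). Explanations were not tested.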

How the results depend on the processing

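Counts of DEGs depended on the processing, while in the alternatives run no result that passed its threshold changed direction. For the heart DEGs of both comparisons the groups did not overlap, so leaving out libraries could not change their direction. With 8 libraries, the 15 DEGs became 80 with no filter, 8 with a mean above 50, 82 with DESeq2, 100 with library weights, 42 with the hepatocyte covariate, and 4 to 61 when 1 library was left out (27 without KO replicate 2, 61 without KO replicate 3, 32 without KO replicate 4, 4 without KO+AAV replicate 3, and 6 without KO+AAV replicate 4). Without KO replicate 2, the 27 DEGs became 123 with no filter, 17 with a mean above 50, 64 with DESeq2 (3 after adjustment), 95 with library weights, 73 with the atrial covariate, 65 with neither KO replicate 4 nor KO+AAV replicate 1, and 14 to 74 when 1 more library was left out (74 without KO replicate 3, 51 without KO replicate 4, 45 without KO+AAV replicate 1, and 14 without KO+AAV replicate 4), with 0 to 1 after adjustment (*Ccl21a* without KO replicate 1). For the difference between heart and gastrocnemius, the 59 genes became 138 with no filter, 38 with a mean above 50, 184 with weights (6 after adjustment), 198 with edgeR (0 after adjustment, so that *Mylk4* was lost), 177 with DESeq2 (7 after adjustment), and 34 to 121 when 1 library of either tissue was left out (121 without KO heart replicate 1, 111 without KO heart replicate 3, and 34 without KO+AAV heart replicate 4). The causes were not tested. The difference of *Arntl* ranged from 0.24 to 0.39 when 1 library was left out. Whether replicate numbers pair the hearts is not stated by the labels. With the replicate number as a block there were 10 DEGs with 8 libraries, 22 with 7, and 68 genes in the comparison of tissues (2 after adjustment, *Mylk4* and *Dbp*). For *Arntl* the exact sign-flip *P* over the same-numbered hearts was 0.125, the smallest 16 arrangements allow. With 3 or 4 hearts a group, the median SE was 0.29 on the log2 scale with 8 libraries and 0.19 with 7, which limits what could be detected.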
